A study of Mus musculus with 4 samples.

Results

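Xenobiotic metabolism genes are the enzymes and pumps with which tissue alters and clears foreign chemicals, and 127 of the 16637 genes named on the array belonged to them. They were taken by gene symbol alone, after old symbols of the platform annotation had been replaced through their synonyms. The rule took cytochromes P450 of families Cyp1 to Cyp4 and carboxylesterases Ces1 to Ces5, UDP-glucuronosyltransferases of families Ugt1 and Ugt2, glutathione S-transferases (Gst and Mgst), sulfotransferases (Sult), transporters of the Abcb, Abcc and Abcg families, and the single genes Nr1i2, Nr1i3, Ahr and Por. By role, 59 genes were phase I, 41 were phase II, 24 were counted as efflux and 3 were receptors. Of the 24 ABC transporters, 14 belong to subfamilies of drug or conjugate pumps. The other members of that group are 4 carriers of mitochondria or lysosomes, 4 sterol transporters and 2 subunits of potassium channels, so the name drug efflux holds for part of the group.

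In phase I, P450 enzymes oxidise a compound with electrons passed on by P450 oxidoreductase (Por), and carboxylesterases split esters. In phase II, transferases attach glucuronic acid, glutathione or sulfate, and ABC pumps then carry the conjugates out of the cell. The pregnane X receptor (Nr1i2), the constitutive androstane receptor (Nr1i3) and the aryl hydrocarbon receptor (Ahr) bind foreign and dietary compounds and switch on many of these genes. In the colon, the absorptive cells of the surface epithelium hold much of this machinery.

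RNA of colon from female mice was measured on 1-colour arrays, 1 for each of 4 groups of 6 mice. The ginger group received 250 mg/kg TNBS, a hapten that provokes colitis, with ginger extract; the zingerone group received the same amount of TNBS with zingerone, a phenolic ketone of ginger; the TNBS group received TNBS alone; and the mock group received only the vehicle that all groups shared, 0.1 ml of 50% ethanol. The strain is labelled BALC/c for the ginger, zingerone and TNBS arrays and BALB/c for the mock array, and tissue was collected on day 7. Pooling of mice for an array is not stated, and neither is the amount of ginger or zingerone behind it, which is labelled as various. With 1 array per group no errors or p-values can be given, and a gene is called higher or lower below only where 2 arrays were at least 2-fold apart, a log2 difference of 1 or more. Levels are the deposited intensities in arbitrary units, and they can be compared between arrays for 1 gene but not between genes.

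Of the 127 members, 74 counted as measured because they reached the median intensity of all named probes on at least 1 array. These were 29 of 59 phase I genes, 30 of 41 phase II genes, 13 of 24 efflux genes and 2 of 3 receptors. The median was reached on all 4 arrays by 55 members and on 1 to 3 arrays by 19, among them Ces2a, Ugt2b34 and Abcg5. The 53 other members had intensities, averaged over their probes, between 87.25 and 256.4 on every array. Cyp1a1 and Cyp1b1, classic target enzymes of the aryl hydrocarbon receptor, were among these dim genes. Cyp1a1 had an intensity of 137 on ginger, 125 on zingerone, 146 on TNBS and 113 on mock. Cyp1b1 had an intensity of 142.5 on ginger, 145 on zingerone, 179.5 on TNBS and 154 on mock. Both stayed below the median on every array, so a change in them could not be followed here. The other Cyp1 gene on the array, Cyp1a2, was measured. It had an intensity of 455 on ginger, 332 on zingerone, 540 on TNBS and 533 on mock. Its log2 difference was 0.02 for TNBS minus mock, -0.25 for ginger minus TNBS and -0.70 for zingerone minus TNBS, and none reached 2-fold. The carboxylesterase Ces1f, the P450 enzyme Cyp2d26 and the conjugate pump Abcc1 were equally dim on average over their probes, with intensities between 147 for Abcc1 and 236 for Cyp2d26, both on mock. A single Cyp2d26 probe passed the median on TNBS, at 283, and on mock, at 294.5. Ces1d, Ces2c, Ugt1a6a, Ugt1a7c and Abcb1a were not analysed here.

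Sequences are shown for 4 phase I genes: Cyp4f14, lowest on TNBS relative to mock, its relative Cyp4f18 and the oxidoreductase Por, the only members called higher on TNBS than mock, and Ces2a, a carboxylesterase lower on TNBS. Each is 300 bases from 250 before to 50 after a start of transcription, from the RefSeq table of GRCm38.p6. The windows are chr17:32917307-32917606 on the minus strand for Cyp4f14, chr8:72009577-72009876 on the minus strand for Cyp4f18, chr5:135688895-135689194 on the plus strand for Por and chr8:104733753-104734052 on the plus strand for Ces2a. Capitals mark matches, on either strand, to 6 motifs: the nuclear receptor motif AGGTCA, the xenobiotic response core GCGTG, the antioxidant response core TGACNNNGC, the PU box GAGGAA, the HNF4 site CAAAGTCC and the CCAAT box.
Cyp4f14: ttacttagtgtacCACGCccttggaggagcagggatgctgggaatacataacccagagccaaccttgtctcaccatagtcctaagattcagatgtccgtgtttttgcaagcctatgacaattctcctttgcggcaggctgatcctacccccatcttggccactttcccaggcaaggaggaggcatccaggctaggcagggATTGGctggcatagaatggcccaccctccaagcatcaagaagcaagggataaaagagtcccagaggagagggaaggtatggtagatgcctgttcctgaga
Cyp4f18: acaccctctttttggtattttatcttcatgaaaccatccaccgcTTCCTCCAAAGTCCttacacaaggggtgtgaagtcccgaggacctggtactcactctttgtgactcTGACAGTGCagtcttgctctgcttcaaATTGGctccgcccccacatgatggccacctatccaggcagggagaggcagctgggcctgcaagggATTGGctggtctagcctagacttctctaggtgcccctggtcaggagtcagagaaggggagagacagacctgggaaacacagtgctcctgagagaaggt
Por: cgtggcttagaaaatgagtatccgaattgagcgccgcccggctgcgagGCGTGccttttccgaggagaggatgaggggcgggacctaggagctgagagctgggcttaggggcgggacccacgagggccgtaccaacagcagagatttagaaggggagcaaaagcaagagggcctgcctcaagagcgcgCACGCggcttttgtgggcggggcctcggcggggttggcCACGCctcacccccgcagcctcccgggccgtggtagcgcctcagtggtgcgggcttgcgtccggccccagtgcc
Ces2a: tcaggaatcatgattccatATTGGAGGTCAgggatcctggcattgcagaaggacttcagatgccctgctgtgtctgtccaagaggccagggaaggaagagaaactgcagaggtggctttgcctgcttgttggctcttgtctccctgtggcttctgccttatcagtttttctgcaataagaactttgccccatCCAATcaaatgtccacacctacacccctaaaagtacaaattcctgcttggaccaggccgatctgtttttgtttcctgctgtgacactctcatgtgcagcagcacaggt
The Cyp4f14 window, 1 of 4 start sites listed for that gene, held 1 reversed xenobiotic response core and 1 reversed CCAAT box. The Cyp4f18 window held a reversed PU box that runs straight into an HNF4 site, an antioxidant response core, and 2 reversed CCAAT boxes. The Por window held 3 xenobiotic response cores and the Ces2a window 1 nuclear receptor motif and 2 CCAAT boxes, 1 of them touching the nuclear receptor motif. The run agggattggctgg, 13 bases long, lay at base 197 of the Cyp4f14 window and base 199 of the Cyp4f18 window, and 6 of 32851 promoters, of 4 genes, held it on either strand. The CCAAT box and this run were looked for after the sequences had been read.

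Such motifs are short and common. Among all 32851 promoters, 16.3% held the nuclear receptor motif, 32.4% the xenobiotic core, 12.4% the antioxidant core, 28.3% the PU box, 1.42% the HNF4 site and 37.4% the CCAAT box. Promoters were found for 104 of the 127 members, and among their 128 windows the shares were 21.1%, 22.7%, 10.9%, 23.4%, 3.91% and 48.4% in the same order. TGACNNNGC can overlap a reversed AGGTCA. A match describes letters in a window, not a bound factor, and its absence says nothing of the factor.

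The TNBS array had lower levels than mock in more members than it had higher levels, and the calls fell in phase I and phase II. Against mock, 7 of 74 members were called lower on TNBS (9.46%), where the background was 4.52% of 10056 measured genes, and 2 were called higher (2.70%), where the background was 5.08%. Of the lower calls, 5 were phase I genes (Cyp4f14, Cyp2d10, Ces2a, Cyp2e1 and Cyp2d9) and the other two were phase II genes (Gstt3 and Ugt2b34). Both higher calls, Cyp4f18 and Por, were phase I genes. The median log2 difference, TNBS minus mock, was -0.12 over the members, -0.04 over all measured genes and -0.13 over 9 measured reference genes. By role it was -0.12 in phase I, where 11 of 29 lay above 0, -0.23 in phase II, where 9 of 30 did, and -0.03 in efflux, where 5 of 13 did; of all measured genes, 46.1% did. With the brightest probe per gene in place of the mean of its probes, 11 members were lower on TNBS (13.9%, beside 4.81% of all measured genes), and after subtraction of each 5th percentile, 14 were (19.2%, beside 8.47%). In whole colon, fewer cells of a type and less RNA per cell cannot be told apart.

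The phase I gene lowest on TNBS was Cyp4f14, whose enzyme ω-hydroxylates leukotriene B4 and other fatty acids. Cyp4f14 had an intensity of 873 on ginger, 635 on zingerone, 313 on TNBS and 1404 on mock. The TNBS array was 4.48-fold below mock; against TNBS, ginger was 2.79-fold higher and zingerone 2.03-fold higher. Both treated arrays lay between TNBS and mock, and zingerone remained 2.21-fold below mock. Cyp4f18, a leukotriene B4 hydroxylase known from mouse neutrophils, ran the opposite way. Its intensity was 1064.5 on ginger, 831 on zingerone, 2367 on TNBS and 775 on mock. The TNBS array stood alone at 3.05-fold above mock, with ginger 2.22-fold and zingerone 2.85-fold below TNBS. A related gene, Cyp4f13, followed neither: its intensity was 1253 on ginger, 1152 on zingerone, 992.5 on TNBS and 654 on mock. Here mock was lowest, and no difference reached 2-fold.

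Por, the electron donor of all microsomal P450 enzymes, was the other member higher on TNBS, and its 2 probes disagreed in size. The brighter probe read 4169 on ginger, 3984 on zingerone, 8432 on TNBS and 1799.5 on mock, a log2 difference of 2.23 for TNBS minus mock. The dimmer probe read 354 on ginger, 311 on zingerone, 426 on TNBS and 379 on mock, a log2 difference of 0.17. Averaged over both probes, the log2 difference was 1.20 for TNBS minus mock, -0.64 for ginger minus TNBS and -0.77 for zingerone minus TNBS. The size of the Por difference therefore rests on 1 probe, although both were highest on TNBS.

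Neutrophil markers moved in the same direction as Cyp4f18 and Por. All 6 measured of 9 neutrophil genes on the array were higher on TNBS than mock, and the summed intensity of the 9 was 96720 on ginger, 75921 on zingerone, 148198 on TNBS and 5894 on mock. S100a8 and S100a9 carried much of these sums. Without both, the sums were 8532 on ginger, 6211 on zingerone, 45515 on TNBS and 3614 on mock. Adipocyte markers, 8 on the array of which 7 were measured, summed to 16676 on ginger, 29248 on zingerone, 65111 on TNBS and 10430.5 on mock. Fabp4 and Cfd made up most of these sums. Without both, the sums were 1903 on ginger, 2522 on zingerone, 3077 on TNBS and 1895 on mock. All but 1 of the measured adipocyte markers were highest on TNBS. The 8 fibroblast markers, 7 of them measured, summed to 10536 on ginger, 10077 on zingerone, 24214 on TNBS and 7943 on mock, of which Vim was the greater part. Without Vim the sums were 4090 on ginger, 4936 on zingerone, 5216 on TNBS and 4555 on mock, and the log2 difference of TNBS minus mock was -0.11 for Col1a1 and -0.70 for Col1a2. No marker of these lists was listed at 0, and the part of these cells in the 2 genes was not tested.

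Cyp2d10, Cyp2d9 and Cyp2d34 were low on TNBS together. These P450 enzymes are counted among the main drug oxidases of rodent liver and gut, and their sequences are so alike that the transcripts a probe bound cannot be told apart. Cyp2d10 had an intensity of 844 on ginger, 989.9 on zingerone, 508 on TNBS and 1186 on mock, 2.33-fold lower on TNBS than mock. Cyp2d9 had an intensity of 1366 on ginger, 1157 on zingerone, 669 on TNBS and 1341 on mock. Cyp2d9 lay just past the threshold for TNBS minus mock and, at a log2 difference of 1.03, for ginger minus TNBS. Cyp2d34, with 2881 on ginger, 2664 on zingerone, 1447 on TNBS and 2606 on mock, lay just short of it, at -0.85 for TNBS minus mock and 0.99 for ginger minus TNBS. In all 3 genes the TNBS array was the lowest, and Cyp2d22, with log2 differences between 0.03 and 0.26 over the 5 comparisons with TNBS or mock, did not share the pattern.

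Ces2a, an intestinal carboxylesterase, had an intensity of 478 on ginger, 551 on zingerone, 236 on TNBS and 536 on mock. It was 2.27-fold lower on TNBS than mock, and both treated arrays were at least 2-fold above TNBS, 2.02-fold on ginger and 2.33-fold on zingerone. Cyp2s1, a P450 enzyme of epithelia that lie outside the liver, had an intensity of 478 on ginger, 733 on zingerone, 280.25 on TNBS and 550.5 on mock. Only zingerone minus TNBS was past the threshold for Cyp2s1, at a log2 difference of 1.39, and TNBS minus mock was -0.97. In both genes TNBS alone was low, and mock, ginger and zingerone were closer to each other than to TNBS.

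Cyp2e1, the P450 enzyme that oxidises ethanol, differed from these in that the mock array alone stood high. Its intensity was 457.5 on ginger, 459.5 on zingerone, 415 on TNBS and 856 on mock, with a log2 difference of -1.04 for TNBS minus mock and -0.90 for either treated array minus mock. Cyp2e1 is abundant in hepatocytes, and 13 hepatocyte markers on the array, 10 of them measured, summed to an intensity of 4670 on ginger, 4590 on zingerone, 8397 on TNBS and 11896 on mock. Alb and Ttr carried much of these sums; without both, the sums were 2641 on ginger, 2891 on zingerone, 3669 on TNBS and 4160 on mock. Mock was the highest array for 6 of the 10 measured markers, zingerone for 2, and ginger and TNBS for 1 each. None was listed at 0, and the part of hepatocyte RNA in the Cyp2e1 difference was not tested.

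Among the remaining phase I genes, Cyp2c55, Cyp3a13, Cyp4b1 and Cyp2r1 stayed within 2-fold throughout. Cyp2c55, a colonic epoxygenase, had an intensity of 708 on ginger, 691 on zingerone, 668 on TNBS and 799 on mock. Cyp3a13, an intestinal member of the family that oxidises many drugs, had 409 on ginger, 429.75 on zingerone, 383 on TNBS and 341 on mock. Cyp4b1 had 531 on ginger, 471.5 on zingerone, 560.25 on TNBS and 469.75 on mock. Cyp2r1, which hydroxylates vitamin D, had 2 probes of opposite sign, reading 1249 on ginger, 1501 on zingerone, 1234 on TNBS and 1336 on mock, and 146.5, 153, 166 and 149 on the same arrays. These 4 genes spanned less than a log2 unit each, and so did the other measured phase I members that were not called.

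**Figure D1:**
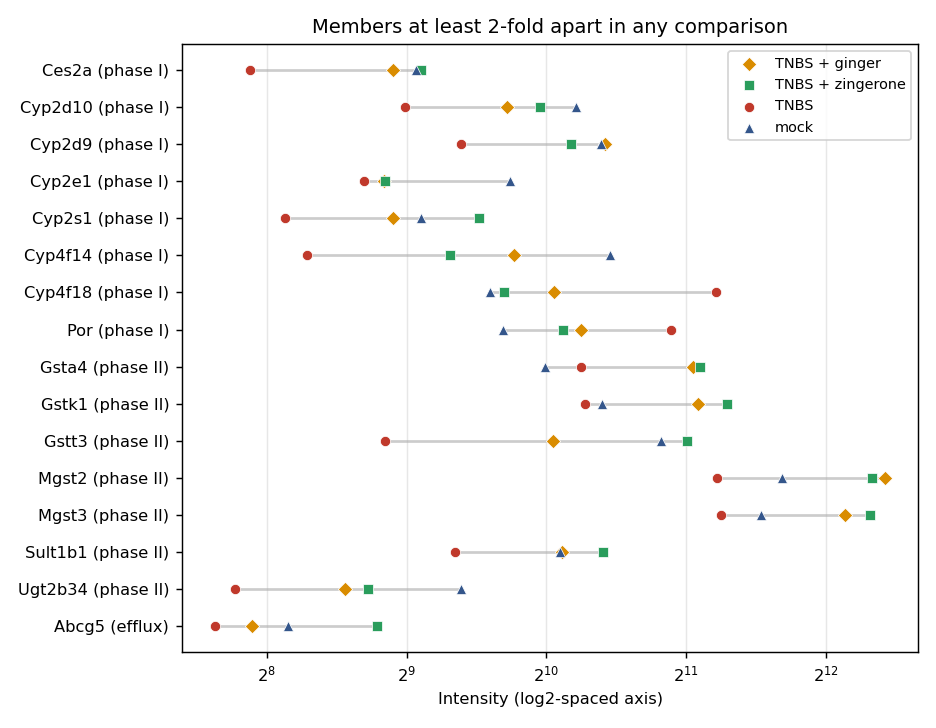
Intensity of the 16 members at least 2-fold apart in any comparison, on a log2-spaced axis, with 1 point for each array (ginger, zingerone, TNBS and mock) and a grey line over their range. The TNBS point is leftmost for all but Cyp4f18, Por and Gsta4, among them Cyp4f14 (313), Gstt3 (460.5) and Ugt2b34 (218.5), and rightmost for Cyp4f18 (2367) and Por, whose point is the mean of 2 probes that disagree.

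In phase II, the gene with the widest range was Gstt3, a theta class glutathione S-transferase. Gstt3 had an intensity of 1057 on ginger, 2056 on zingerone, 460.5 on TNBS and 1809.75 on mock. It was 3.93-fold lower on TNBS than mock, and against TNBS it was 2.30-fold higher on ginger and 4.46-fold higher on zingerone. Zingerone was close to mock and ginger lay between TNBS and mock. Of the other theta class genes, Gstt4 was not measured, at 139 on ginger, 128.5 on zingerone, 143.5 on TNBS and 140.5 on mock. Gstt1 read 265 on ginger, 405.5 on zingerone, 245 on TNBS and 383 on mock. The brighter of 2 Gstt2 probes read 295 on ginger, 532.5 on zingerone, 187 on TNBS and 510.5 on mock, while its dimmer probe stayed between 145 and 162. For Gstt3, Gstt1 and Gstt2, zingerone and mock were the higher pair of arrays and TNBS the lowest, with the exception of the dim Gstt2 probe.

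Among the mu class transferases, Gstm2 showed the same order on its brighter probe, which read 1413.5 on ginger, 3033 on zingerone, 855.5 on TNBS and 3009 on mock. That probe had log2 differences of -1.81 for TNBS minus mock and 1.83 for zingerone minus TNBS. The second Gstm2 probe stayed between 336 on TNBS and 400 on ginger, so that the mean over both probes was -0.95 for TNBS minus mock and was not called. Gstm1, with probes that differ in sign, read 2719 on ginger, 2333 on zingerone, 1845 on TNBS and 2066 on mock with its brighter probe, and 275, 248.5, 298 and 258 on the same arrays with its dimmer one. No Gstm1 difference reached 2-fold.

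Ugt2b34, a glucuronosyltransferase, was the other phase II gene called lower on TNBS. Its intensity was 377.5 on ginger, 423 on zingerone, 218.5 on TNBS and 672 on mock. The TNBS array was 3.08-fold below mock, and ginger at 1.73-fold and zingerone at 1.94-fold above TNBS did not reach the threshold. All 3 arrays with TNBS were below mock.

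A second set of phase II genes, Gsta4, Mgst2, Mgst3 and Gstk1, was not low on TNBS against mock by 2-fold. In these genes both treated arrays lay above both TNBS and mock. Gsta4, the alpha class transferase that conjugates the lipid peroxidation product 4-hydroxynonenal, had an intensity of 2114 on ginger, 2190 on zingerone, 1213 on TNBS and 1015 on mock. It was 2.08-fold higher on ginger than mock and 2.16-fold higher on zingerone than mock. Gsta4 was the only member called higher than mock on either treated array.

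Mgst2 and Mgst3, microsomal transferases of the family that also makes and breaks down lipid mediators, ran alike. Mgst2 had an intensity of 5476.5 on ginger, 5137 on zingerone, 2379 on TNBS and 3294 on mock, 2.30-fold and 2.16-fold higher than TNBS on ginger and zingerone. Mgst3 had mean intensities over 3 probes of 4489 on ginger, 5076 on zingerone, 2426 on TNBS and 2957 on mock, with log2 differences of 0.89 for ginger minus TNBS and 1.07 for zingerone minus TNBS. Mgst1 did not follow, at 832.5 on ginger, 1141 on zingerone, 921.5 on TNBS and 1122 on mock. For Mgst2 and Mgst3 both treated arrays were above both others, whereas for Mgst1 the ginger array was the lowest.

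Gstk1, a transferase of mitochondria and peroxisomes, had mean intensities over 2 probes of 2165 on ginger, 2500 on zingerone, 1237 on TNBS and 1345 on mock. Its log2 difference was 1.01 for zingerone minus TNBS, just past the threshold, and 0.81 for ginger minus TNBS, and its 2 probes moved alike. Sult1b1, a sulfotransferase of thyroid hormones and phenols in gut and liver, had mean intensities over 2 probes of 1105 on ginger, 1358 on zingerone, 650 on TNBS and 1093 on mock. The brighter Sult1b1 probe read 4252.5 on ginger, 4916 on zingerone, 1831 on TNBS and 3852 on mock. That probe had a log2 difference of -1.07 for TNBS minus mock, while the mean over both probes was -0.75 and was not called. Sult1b1 was lowest on TNBS on both probes, while Gstk1 was about level between TNBS and mock.

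Further members stayed within 2-fold in all comparisons. The phenol sulfotransferase Sult1a1 had an intensity of 993 on ginger, 1239 on zingerone, 674 on TNBS and 1163 on mock. Sult1c2 had 489.5 on ginger, 449 on zingerone, 436 on TNBS and 492 on mock. Sult1a1 was thus lowest on TNBS, as Sult1b1 was, and Sult1c2 was nearly flat. Gstp1, the pi class transferase, had 2615 on ginger, 2594 on zingerone, 2098 on TNBS and 2029.5 on mock. Gsta3 had 508 on ginger, 635 on zingerone, 555 on TNBS and 630.5 on mock. For Gstp1 both treated arrays were above both others, which Gsta3 did not share.

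**Figure D2:**
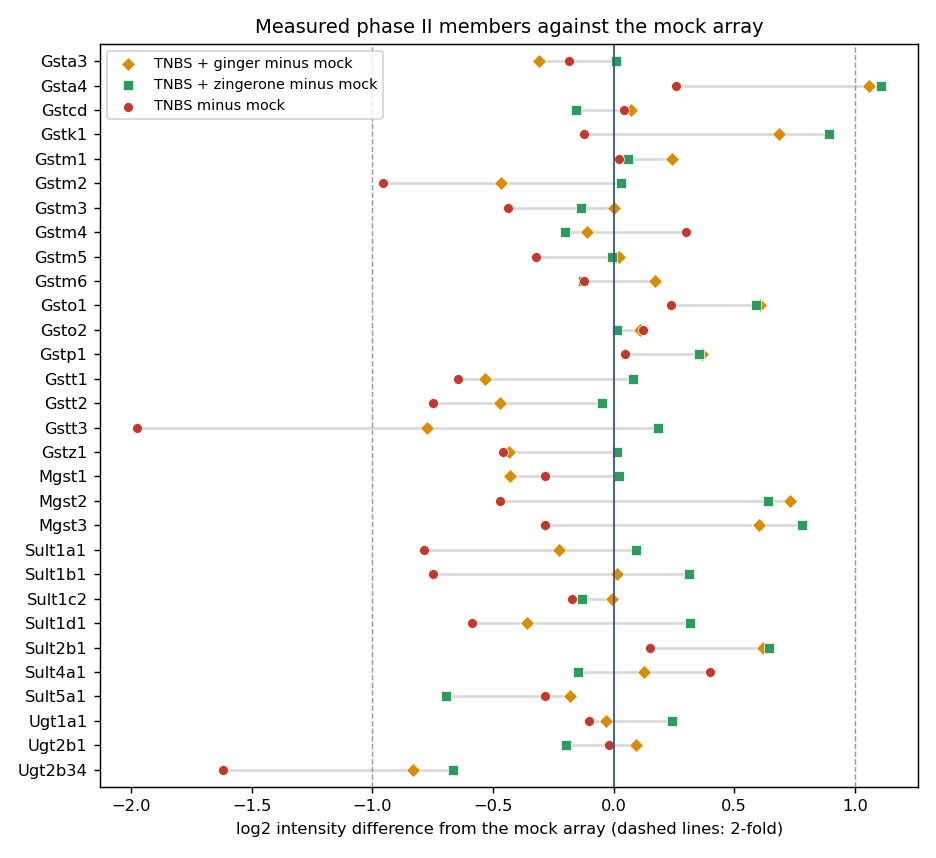
Log2 intensity difference from the mock array for the 30 measured phase II members, with 1 point each for ginger, zingerone and TNBS, a solid line at mock and dashed lines at 2-fold. TNBS points for Gstt3 (-1.97) and Ugt2b34 (-1.62) lie left of the 2-fold line, and only the ginger and zingerone points of Gsta4 (1.06 and 1.11) lie right of it.

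The glucuronosyltransferases of the Ugt1a locus are made from alternative first exons joined to shared last exons, and 21 probes of the array were annotated to Ugt1a1, so that single isoforms cannot be told apart. Over all probes Ugt1a1 had mean intensities of 429 on ginger, 520 on zingerone, 409 on TNBS and 439 on mock. Counted by sign alone, 10 of 13 measured Ugt1a1 probes lay below mock on TNBS and 3 above, and none of them reached 2-fold. Against TNBS, 8 lay above and 5 below on ginger, with the same counts on zingerone. These probes read 1 locus and are not separate genes. The 5 brightest probes by mean intensity over the arrays all lay below mock on TNBS, by log2 differences between -0.94 and -0.16. All 5 lay above TNBS on both treated arrays, by 0.15 to 0.52 on ginger and 0.47 to 0.99 on zingerone. A further probe stood apart, reading 143.5 on ginger, 2051 on zingerone, 154.9 on TNBS and 119.75 on mock, and no other Ugt1a1 probe had this pattern. It is among the 13 measured probes and raises the zingerone mean over all probes, with a log2 difference of 3.73 for zingerone minus TNBS.

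**Figure D3:**
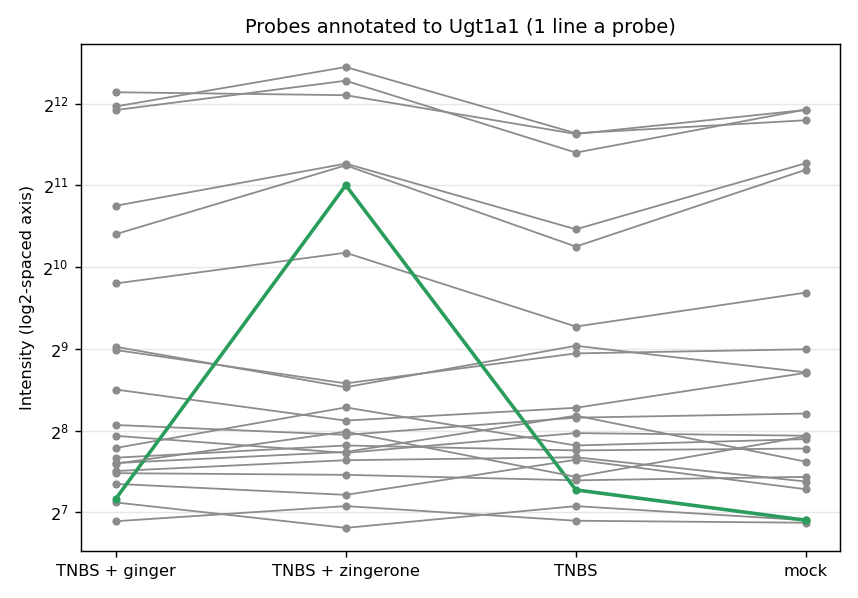
Intensity of the 21 probes annotated to Ugt1a1 on the ginger, zingerone, TNBS and mock arrays, on a log2-spaced axis, with 1 line for each probe. The 5 brightest lines have their lowest point at TNBS, the dimmer lines run in several directions, and the green line is the probe that reads 2051 on zingerone and 119.75 to 154.9 elsewhere.

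Of 13 measured efflux members, none was called higher or lower on TNBS against mock, where the background was 5.08% higher and 4.52% lower. Among so few genes a count of 0 is not far from these shares. With the brightest probe per gene, Abcb1b was called lower. Abcg2, the breast cancer resistance protein that pumps drugs and sulfate conjugates into the gut lumen, had an intensity of 1643 on ginger, 1942 on zingerone, 1208 on TNBS and 1231 on mock. Abcc3, a pump of the basolateral membrane for glucuronides, had 573 on ginger, 700.25 on zingerone, 525 on TNBS and 367 on mock. Abcc4, a pump of cyclic nucleotides and conjugates, had 437 on ginger, 407.5 on zingerone, 403 on TNBS and 364 on mock. For Abcg2 both treated arrays lay above TNBS and mock, whereas for Abcc3 and Abcc4 mock was lowest. No difference of these 3 pumps reached 2-fold.

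Abcg5 was the only efflux member past the threshold in any comparison, at a log2 difference of 1.16 for zingerone minus TNBS, and it exports plant and animal sterols rather than drugs. Its intensity was 238 on ginger, 443 on zingerone, 198.5 on TNBS and 284 on mock, which put ginger and TNBS under the median of all named probes. Abcb1b, a P-glycoprotein gene, had 2 probes of opposite sign. The brighter read 478 on ginger, 754 on zingerone, 264 on TNBS and 668.5 on mock. The dimmer read 163 on ginger, 169 on zingerone, 203.5 on TNBS and 157.5 on mock. The brighter probe was thus lowest on TNBS, by -1.34 against mock, with log2 differences of 0.86 for ginger minus TNBS and 1.52 for zingerone minus TNBS. The dimmer probe was highest on TNBS but stayed under the median of named probes on every array. A direction could therefore be given for the brighter probe only, and the mean over both was not called.

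Abcc2, the apical pump of conjugates, was likewise split: 1 probe read 281 on ginger, 290.25 on zingerone, 470 on TNBS and 263 on mock, and the other, dim on all arrays, read 198, 177, 198.5 and 219. For Abcb8, a mitochondrial carrier, 1 probe read 599 on ginger, 639.75 on zingerone, 544 on TNBS and 654 on mock, and the other was dim on mock alone, at 347, 323, 299.6 and 117. Abcb9, a lysosomal peptide carrier, read 319.5 on ginger, 329 on zingerone, 307.5 on TNBS and 314 on mock with 1 probe and 300.25, 277, 252 and 249.75 with the other. In these 3 genes a direction could be given for single probes only, and neither Abcb9 probe was 2-fold apart in any comparison.

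The other measured transporters were not called. Abcb6 and Abcb10, mitochondrial carriers, had log2 differences of -0.44 and -0.13 for TNBS minus mock, and Abcg4, a sterol transporter, had -0.12. Abcc10, a conjugate pump, had -0.08. Abcc9, a potassium channel subunit, had 0.41, of which 1 probe gave 0.80 and the other 0.02.

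Of the receptors, Nr1i2 had an intensity of 421 on ginger, 389 on zingerone, 227 on TNBS and 436 on mock, so that the TNBS array alone was low. Its log2 differences, -0.94 for TNBS minus mock, 0.89 for ginger minus TNBS and 0.78 for zingerone minus TNBS, all fell short of 2-fold. Ahr had 288 on ginger, 277 on zingerone, 314 on TNBS and 280.1 on mock, with all 4 arrays close together. Nr1i3, not measured, had 156 on ginger, 201 on zingerone, 162 on TNBS and 145 on mock.

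**Figure D4:**
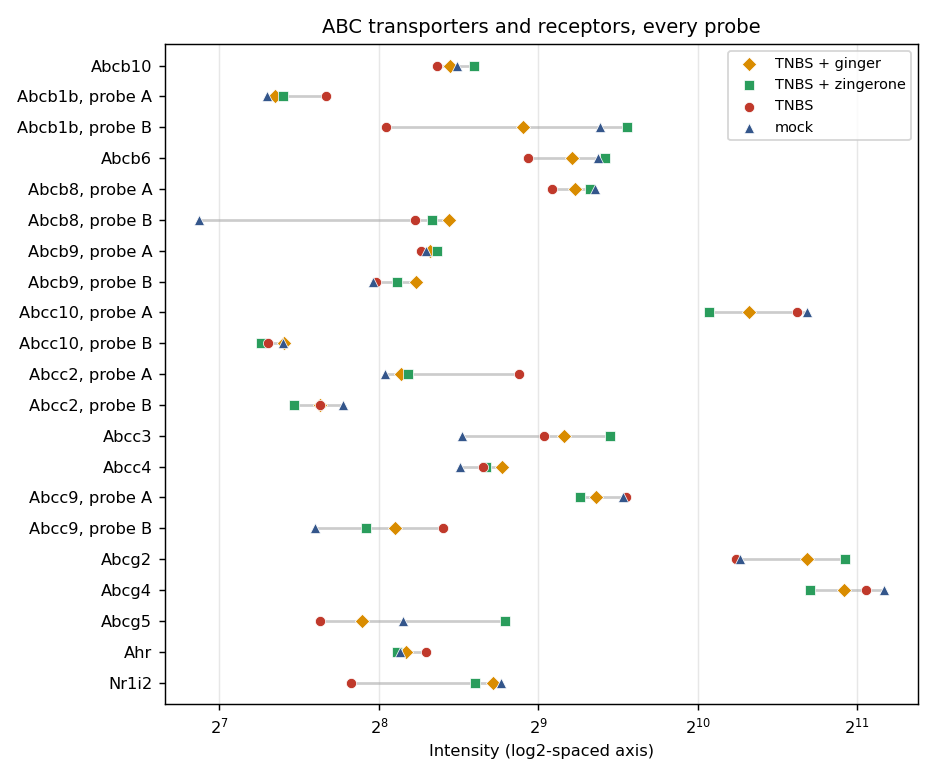
Intensity of every probe of the measured ABC transporters and receptors on a log2-spaced axis, with 1 point for each array (ginger, zingerone, TNBS and mock) and letters for different probes of a gene. Abcb1b probe B (264 on TNBS) and Nr1i2 (227 on TNBS) are low on TNBS alone, Abcb8 probe B (117) is low on mock alone, and Ahr is nearly level.

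Ginger and zingerone were each set against the TNBS array, which is the same array that was set against mock, so the comparisons share it and their directions are tied. On ginger, 5 of 74 members were called higher than TNBS (6.76%), where the background was 1.35%, and 1 was called lower (1.35%), where the background was 2.48%. On zingerone, 9 of 74 were called higher than TNBS (12.2%), where the background was 4.57%, and 1 was called lower (1.35%), where the background was 2.96%. The lower call was Cyp4f18 on both. The higher calls on ginger were Ces2a, Cyp2d9, Cyp4f14, Gstt3 and Mgst2, and those on zingerone were Ces2a, Cyp2s1, Cyp4f14, Gstk1, Gstt3, Mgst2, Mgst3, Sult1b1 and Abcg5. On both arrays 4 members were higher (5.41%, beside 0.905% of all measured genes), and both comparisons use the same TNBS array. After subtraction of each 5th percentile, 10 members were higher on ginger than TNBS (13.7%, beside 3.28% of all measured genes) and 16 on zingerone (21.9%, beside 9.70%).

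Over the members, the median log2 difference was 0.16 for ginger minus TNBS, beside 0.02 over all measured genes, and 0.23 for zingerone minus TNBS, beside -0.02. Over 9 measured reference genes the same medians were 0.26 and 0.18, with 6 and 7 genes above 0. Over 54 measured genes of the wider pathway list described below they were 0.18 and 0.04. Medians of about this size were thus not particular to the members. Phase II had medians of 0.29 for ginger minus TNBS, with 25 of 30 genes above 0, and 0.35 for zingerone minus TNBS, with 23 of 30 above 0. Phase I had medians of 0.13 and 0.14, with 18 and 20 of 29 genes above 0 on ginger and zingerone. Efflux had medians of 0.13 and 0.17, with 9 of 13 above 0 on each. Of all measured genes, 52.7% lay above 0 for ginger minus TNBS and 48.4% for zingerone minus TNBS. Most of these differences were small, and the calls were few in each role.

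Read over the 4 arrays, TNBS was the lowest in 35 of 74 members (47.3%), against 33.2% of all measured genes, and the highest in 11 (14.9%), against 30.6%. Zingerone was the highest in 30 members (40.5%), against 24.4% of all measured genes. Both treated arrays lay above both TNBS and mock in 20 members (27.0%), against 14.2% of all measured genes. By role these were 6 in phase I, 9 in phase II and 5 in efflux. Both treated arrays lay below both TNBS and mock in 7 members (9.46%), against 13.2% of all measured genes. Of these, 3 were in phase I, 1 in phase II and 3 in efflux. These shares describe 4 arrays and carry no error.

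Set against mock, the treated arrays had few calls left. On ginger, 1 member was higher than mock, Gsta4, where the background was 1.62%, and none was lower, where the background was 1.08%. On zingerone, 1 was higher, again Gsta4, where the background was 1.53%, and 1 was lower, Cyp4f14, where the background was 1.05%. The median over the members was -0.02 for ginger minus mock and 0.03 for zingerone minus mock, beside 0.01 over all measured genes in both.

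Zingerone is a single compound and ginger extract a mixture that can hold it, and the amounts given to the mice of these arrays are not stated, so the values stand side by side. No member was 2-fold apart between the 2 arrays; over all measured genes the background was 0.358% for higher and 0.746% for lower on ginger than zingerone. The nearest to the threshold were Gstt3, at a log2 difference of -0.96 for ginger minus zingerone, and Abcg5, at -0.90. With the brightest probe per gene 1 member was lower on ginger (1.27%, beside 0.804% of all measured genes), and with the 5th percentile subtracted 3 were (4.11%, beside 3.16%). Zingerone was higher than ginger in 35 of the 74 members (47.3%) and in 45.6% of all measured genes.

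**Figure D5:**
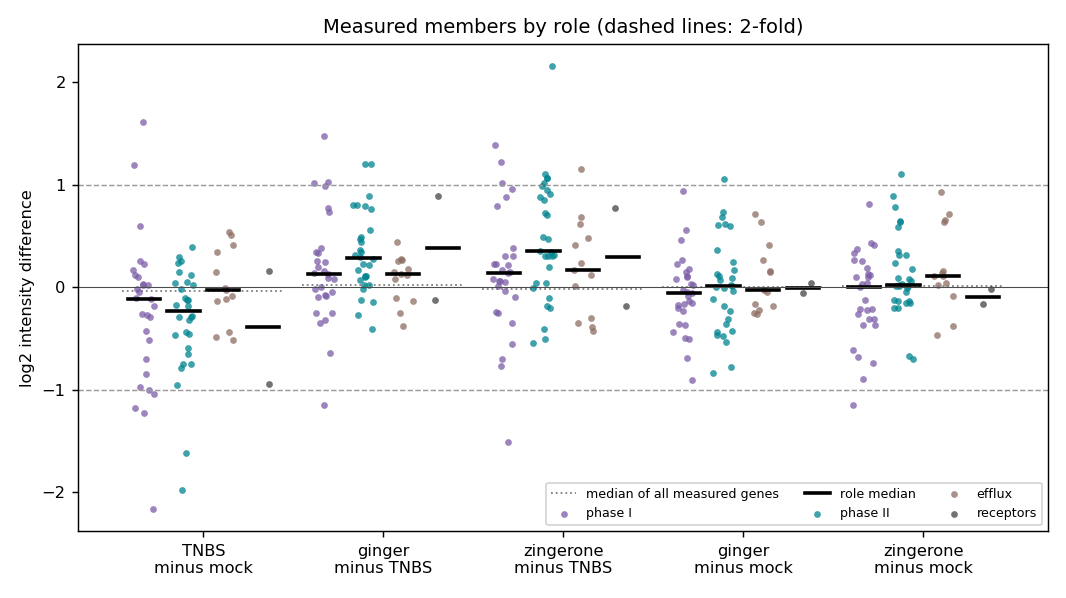
Log2 intensity differences of the 74 measured members in 5 comparisons, with 1 point for each gene, colours for the 4 roles, black bars at the role medians, a dotted line at the median of all measured genes and dashed lines at 2-fold. The phase II bar lies at -0.23 for TNBS minus mock, at 0.29 and 0.35 for ginger and zingerone minus TNBS, and at 0.01 and 0.03 for ginger and zingerone minus mock.

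Markers of absorptive colonocytes moved with the members that were low on TNBS. Of 12 such genes on the array 11 were measured, and the summed intensity of the 12 was 57844 on ginger, 101489 on zingerone, 39026 on TNBS and 93674 on mock. Lypd8 and Guca2a carried much of these sums. Without both, the sums were 33671 on ginger, 39952 on zingerone, 24942 on TNBS and 38539 on mock. Of the measured genes, 6 were lower on TNBS than mock, where the background was 4.52%, and none was higher, where the background was 5.08%. The median log2 difference was -1.31, and 1 gene, Krt20, lay above mock. Against TNBS, 4 were higher on ginger (background 1.35%) and 7 on zingerone (background 4.57%), with medians of 0.89 and 1.30. No marker was listed at 0. Other lists also had medians below 0 for TNBS minus mock. The median was -0.80 over 4 measured small intestine markers, -0.48 over 8 of smooth muscle and -0.90 over 2 of mast cells. In the same order the medians were 0.42, 0.16 and 0.19 for ginger minus TNBS. For zingerone minus TNBS they were 0.80, -0.01 and 0.16. Cyp2s1, Ces2a, Ugt2b34, Sult1b1 and Nr1i2 are epithelial genes, and the part of the colonocyte share in their differences was not tested.

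A wider list of 77 genes of the same pathway, such as reductases, dehydrogenases, uptake carriers and regulators, had 72 on the array and 54 measured. Against mock, 4 were higher on TNBS (Akr1b8, Cyb5r3, Gsr and Slco2a1), 7.41% beside 5.08% of all measured genes, and 2 were lower (Pon2 and Cftr), 3.70% beside 4.52%, with a median log2 difference of -0.07. Slco2a1, a prostaglandin carrier, read 440.5 on ginger, 473 on zingerone, 1332 on TNBS and 399 on mock, and it was the only gene of the list called lower than TNBS on ginger and on zingerone. Akr1b8, an aldo-keto reductase, read 1747 on ginger, 1810.25 on zingerone, 2499 on TNBS and 827 on mock. Gsr, which regenerates reduced glutathione, read 2833 on ginger, 3535 on zingerone, 3944 on TNBS and 1476.5 on mock. For Akr1b8, Gsr and Slco2a1 all 3 arrays with TNBS were above mock. The size was less than 2-fold for Slco2a1 on ginger and zingerone and for Gsr on ginger (log2 difference 0.94). The 2 probes of Cyb5r3 disagreed, with log2 differences of -0.66 and 4.30 for TNBS minus mock, and the second was dim on mock alone at 139.

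On zingerone, 4 genes of the list were called higher than TNBS (Akr1c13, Cbr1, Cftr and Hnf4a), 7.41% beside 4.57% of all measured genes. On ginger none was, where the background was 1.35%. Hnf4a, a nuclear receptor that drives intestinal and hepatic metabolism genes, read 7664.5 on ginger, 9445.5 on zingerone, 4295.5 on TNBS and 6974 on mock. Cbr1, a carbonyl reductase, read 1838 on ginger, 2159 on zingerone, 975.5 on TNBS and 1453 on mock. The chloride channel Cftr, an ABC protein outside the chosen families, read 394.5 on ginger, 571 on zingerone, 201 on TNBS and 767 on mock. In these 3 genes TNBS was the lowest array.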

How the data were processed

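Colon RNA of 4 groups was measured on 1-colour arrays, 1 array per group. Per the labels, Cy3 was put on RNA amplified from 5 µg of total RNA, and the deposited table holds linear intensity values. Of tools, limma is named in the submitters' processing notes, with neither a version nor a role. How the scans were read, corrected and normalized is "not given in the sources used here". When sorted, deposited intensities differ by at most 1.84% between arrays, as quantile normalization would leave them. The lowest is 74.25 and the highest 64634, so background appears not to have been subtracted, which understates folds of dim probes. Precision is limited by the single array per group and by probes of 1 gene that disagree, and no depth applies to arrays.

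Symbols came from the platform annotation; 17558 were current in the RefSeq gene table of GRCm38.p6, 3410 were updated through synonyms and 52 were kept. The 127 members had 181 probes, 94 members with 1 probe. The symbol Ces3 was kept because it is a synonym of more than 1 gene. Probes of a gene were averaged as log2 intensity without a pseudocount. A gene counted as measured where it reached the median of named probes (270.2 ginger, 272.2 zingerone, 269 TNBS, 270.5 mock) on at least 1 array, which kept 10056 of 16637 genes. A difference of at least 2-fold was a call, and no test was run, since 1 array per group leaves no residual degrees of freedom.

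Values on all arrays are printed for each measured member at least 2-fold apart in any comparison and for a list of well-known members; genes whose probes differ in sign are given by probe, and pathway genes at least 2-fold apart may be named. Cyp1a2, Cyp4f13, Cyp2d34, Cyp2d22, Gstt2 and Gstm2, the transporters named by a single difference and Cyp2c29 were named after their values were seen. The members, the marker lists and the pathway list were chosen with earlier results of these data known. Alternatives covered normalization, a floor, the filter, the probe choice, background, probes that stand apart and the fold. Promoters are RefSeq sequences of GRCm38.p6. Steps were tested on simulated data and run in Python 3.11.15 with numpy 2.4.6 and pandas 2.3.3.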

Additional observations from a re-analysis of the deposited data

How the results depend on the processing

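With 1 array per group no replicate could be left out. No paired analysis was possible because each group has 1 array. The limits are the single array per group, unknown pooling and amounts, background left in the intensities, and probes of 1 gene that disagree: of 19 measured members with several probes, 7 had probes of opposite sign for TNBS minus mock. Under the 9 alternatives the medians of the members kept their sign in the other comparisons, but that of ginger minus zingerone, near 0, ranged from -0.02 to 0.03. Of 108 counts, 83 stayed within 1.5 times of the reported ones. The deposited arrays already had nearly equal distributions. Quantile normalization and equal array medians, which are among the alternatives, could therefore hardly move a count or a value, so their unchanged results are no sign of stability. Shares below are of measured members, beside those of all measured genes. With the brightest probe per gene, members lower on TNBS than mock numbered 11 (7 otherwise), adding Abcb1b, Gstm2, Gstt2 and Sult1b1. These 11 made 13.9%, beside 4.81%. Lower calls numbered 3 for ginger minus TNBS (3.80%, beside 2.71%) and 3 for zingerone minus TNBS (3.80%, beside 3.35%). For ginger minus mock 2 were higher (2.53%, beside 1.74%) and 1 lower (1.27%, beside 1.10%). For zingerone minus mock 3 were higher (3.80%, beside 1.72%), and 1 was lower on ginger than zingerone (1.27%, beside 0.804%). With each array's 5th percentile subtracted, 14 were lower on TNBS than mock (19.2%, beside 8.47%). For ginger minus TNBS 10 were higher (13.7%, beside 3.28%), and for zingerone minus TNBS 16 were (21.9%, beside 9.70%). For ginger minus mock 3 were higher (4.11%, beside 2.98%) and 2 lower (2.74%, beside 2.82%). For zingerone minus mock 2 were higher (2.74%, beside 3.82%) and 2 lower (2.74%, beside 1.96%). On ginger 3 were lower than on zingerone (4.11%, beside 3.16%). With calls at 1.5-fold, 17 were lower on TNBS than mock (23.0%, beside 12.2% of all measured genes). For ginger minus TNBS 14 were higher (18.9%, beside 6.06%) and 2 lower (2.70%, beside 6.40%). For zingerone minus TNBS 22 were higher (29.7%, beside 13.1%) and 3 lower (4.05%, beside 8.60%). For ginger minus mock 9 were higher (12.2%, beside 4.95%) and 4 lower (5.41%, beside 5.20%). For zingerone minus mock 11 were higher (14.9%, beside 6.39%) and 7 lower (9.46%, beside 5.11%). On ginger 5 were lower than on zingerone (6.76%, beside 4.85%). The looser threshold and the larger folds after subtraction act on all genes. The median of the members ranged from -0.27 to -0.08 for TNBS minus mock, from 0.06 to 0.34 for ginger minus TNBS and from 0.04 to 0.39 for zingerone minus TNBS. Of 2220 values of single members under the 6 alternatives that keep the filter and the threshold, 42 passed 2-fold only under the alternative, no called value lost its call, and 21 values of 9 members turned sign, none of them called and 13 of them with the brightest probe per gene (Abcb8 and Gstm1 among them). With the filter at the 75th percentile, 8 members were higher on zingerone than TNBS (21.1%, beside 7.19%), since Abcg5 was no longer measured.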

Other observations

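Cyp2c29, an epoxygenase not counted as measured, has 2 probes. One of them read 202 on ginger, 170 on zingerone, 487 on TNBS and 316 on mock, and the other was dim on all 4 arrays, between 105 and 129. The gene was therefore left out although 1 probe was above the median on TNBS and mock. Other members left out also had a probe above the median, Cyp2d26 among them.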
